A study of Arabidopsis thaliana with 3 samples.

Results

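The regions described here were the CHG-methylated parts of the pericentromeres of *Arabidopsis* that lie outside protein-coding genes. They were 109,521 tiles of 100 bp, out of 981,270 tiles of the nuclear genome with at least 20 CHG calls in each of the 3 libraries (H in CHG and CHH is A, C or T). A tile was taken when its CHG level, the share of reads with C among C and T calls, was at least 20% over all libraries pooled. It also had to touch no protein-coding gene and to lie at 11.5 to 17.7 Mb on chromosome 1, 1.1 to 7.2 Mb on chromosome 2, 10.3 to 17.3 Mb on chromosome 3, 1.5 to 6.3 Mb on chromosome 4 or 9 to 16 Mb on chromosome 5. Because measured CHG levels chose the tiles, CHG values below are a description with no test. The tiles made up 17,218 on chromosome 1, 23,706 on chromosome 2, 25,970 on chromosome 3, 20,274 on chromosome 4 and 22,353 on chromosome 5, which is between 62.2% and 73.4% of the tiles of each window that had enough calls.

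Bisulfite sequencing (BS-seq) reads unmethylated cytosines as T and methylated cytosines as C. It was done on genomic DNA from mature leaves of 2 *h3.3kd* samples and 1 WT sample, all in the Col-0 background. The *h3.3kd* plants carried T-DNA insertions in *HTR4* and *HTR8* and an artificial microRNA against *HTR5*, expressed from the *HTR5* promoter, so that all genes for the histone variant H3.3 were hit but some *HTR5* transcript could remain. Which of the transgenic lines a given *h3.3kd* replicate came from is not in the labels, and the leaves held all their cell types. The *h3.3kd* libraries had 822,515,332 and 842,326,850 calls and the WT library 839,704,204, or between 19.2 and 19.7 calls per cytosine of the genome. With 1 WT library, the smallest p that an exact two-sided permutation test can give is 0.333. That test could therefore not reach a threshold of 0.05. The spread given is that between the *h3.3kd* libraries, which the study describes as biological replicates. It may also hold technical variation.

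Pericentromeric heterochromatin of *Arabidopsis* is dense in silenced transposons and in tandem repeats. CG methylation there is copied after replication by MET1. CHG methylation is kept by CMT3, which is recruited by the histone mark H3K9me2, while SUVH4 and its relatives place that mark where DNA is methylated. CHH methylation is kept by CMT2 in long heterochromatic elements and by DRM2, guided by small RNAs, mostly at the edges of elements and at short elements in the arms. DDM1 opens nucleosomes for these enzymes, and linker histone H1 lies densely over such chromatin, whereas H3.3 is found mainly in active genes.

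Short stretches show what such tiles look like. The first is a unit of the 178-bp satellite that fills the centromeres, at chr3:13588801-13588978 (TAIR10, plus strand, 98% identical to the unit after it), and stands for the most repeated tiles. The next pair begins at the region with the most tiles called lower in *h3.3kd* for CG, chr1:16706601-16706900, and holds the whole region in which CG methylation was lowest in *h3.3kd* among those named below, chr5:12075601-12075900. All are plus strands of TAIR10. Capitals mark the cytosines in CHG context, as C on the printed strand and as G where the cytosine lies opposite. The chromosome 5 sequence was added after its values had been seen.
Satellite unit: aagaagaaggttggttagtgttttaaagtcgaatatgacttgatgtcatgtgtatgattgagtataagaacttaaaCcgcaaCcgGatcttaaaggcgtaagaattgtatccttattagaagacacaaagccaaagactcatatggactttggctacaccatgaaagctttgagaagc
Lower in *h3.3kd*, chromosome 1: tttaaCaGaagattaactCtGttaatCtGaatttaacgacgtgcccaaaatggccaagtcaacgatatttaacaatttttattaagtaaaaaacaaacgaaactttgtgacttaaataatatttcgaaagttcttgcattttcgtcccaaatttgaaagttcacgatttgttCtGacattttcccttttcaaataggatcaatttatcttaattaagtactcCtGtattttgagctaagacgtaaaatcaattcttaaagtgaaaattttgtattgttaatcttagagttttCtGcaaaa
Lower in *h3.3kd*, chromosome 5: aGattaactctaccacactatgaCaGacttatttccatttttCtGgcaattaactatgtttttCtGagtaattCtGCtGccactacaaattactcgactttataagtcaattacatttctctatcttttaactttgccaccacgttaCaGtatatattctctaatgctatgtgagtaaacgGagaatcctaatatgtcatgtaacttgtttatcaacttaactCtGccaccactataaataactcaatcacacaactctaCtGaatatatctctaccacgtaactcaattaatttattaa

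The tiles were densely methylated in every library. CG methylation over them was 86.4% and 86.1% in the *h3.3kd* libraries, against 87.1% in WT. Both *h3.3kd* values lay below WT, by 0.857 points for their mean, with an SD of 0.195 points between the *h3.3kd* libraries (n = 2). CHG methylation was 44.2% and 43.7% in *h3.3kd*, against 42.5% in WT, a mean difference of 1.47 points. CHH methylation was 9.26% and 9.01% in *h3.3kd*, against 8.96% in WT. The CHH difference of 0.177 points was about equal to the SD between replicates of *h3.3kd* (0.177 points, n = 2). With tiles chosen on the CHG level of WT alone, the differences were -1.11 points for CG, 0.936 for CHG and 0.0774 for CHH. An exact two-sided permutation test gave p = 0.333 for CG, the smallest p possible, and p = 0.667 for CHH. The 95% Wilson intervals of these levels were narrow (87.05% to 87.09% for CG in WT), and like all intervals here they cover counting error only. CHH calls in protein-coding tiles with a CHG level under 5%, a measure of incomplete conversion, were 0.553% and 0.559% C in *h3.3kd*, against 0.568% in WT.

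Single tiles scattered far more than these means. The SD over tiles of the CG difference between an *h3.3kd* library and WT was 7.43 and 7.77 points, and that between the *h3.3kd* libraries was 7.29 points. Of the 87,907 tiles with at least 20 CG calls in each library, 38.6% lay below WT in both *h3.3kd* libraries and 28.3% above it in both. Over the 928,013 tiles of the genome with as many CG calls, 31.2% lay below WT in both and 17.8% above it. In CHG tiles of the arms the shares were 40.4% and 28.2%, so the excess of lower tiles was not particular to the pericentromere. At the threshold of the rule, 3,850 tiles had a CHG level of 20% to 22% and 3,427 tiles of the same windows had 18% to 20%. The tiles closest above it were chr1:13292401-13292500 and chr1:13356601-13356700, both at 20%, and the closest below were chr1:17641001-17641100 and chr2:1805101-1805200, at 19.98% and 19.97%.

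The same class of tile on the chromosome arms differed in another way. In the 21,959 CHG tiles outside the windows and outside protein-coding genes, CHH methylation was 12.6% and 12.2% in *h3.3kd*, against 13.8% in WT. CHH was thus lower in *h3.3kd* on the arms by 1.37 points, where the pericentromeric tiles were higher by 0.177. The pericentromeric level minus the arm level was -3.37 and -3.19 points in *h3.3kd*, against -4.83 points in WT. WT had the widest gap of the 3 libraries (exact two-sided permutation p = 0.333, the smallest possible). CG on the arms was 85.5% and 84.8% in *h3.3kd*, against 86.6% in WT, and CHG was 49.8% and 49.1%, against 51.4%. The CG gap between pericentromere and arms was 0.830 and 1.30 points in *h3.3kd*, against 0.518 points in WT (exact two-sided permutation p = 0.667).

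**Figure D1:**
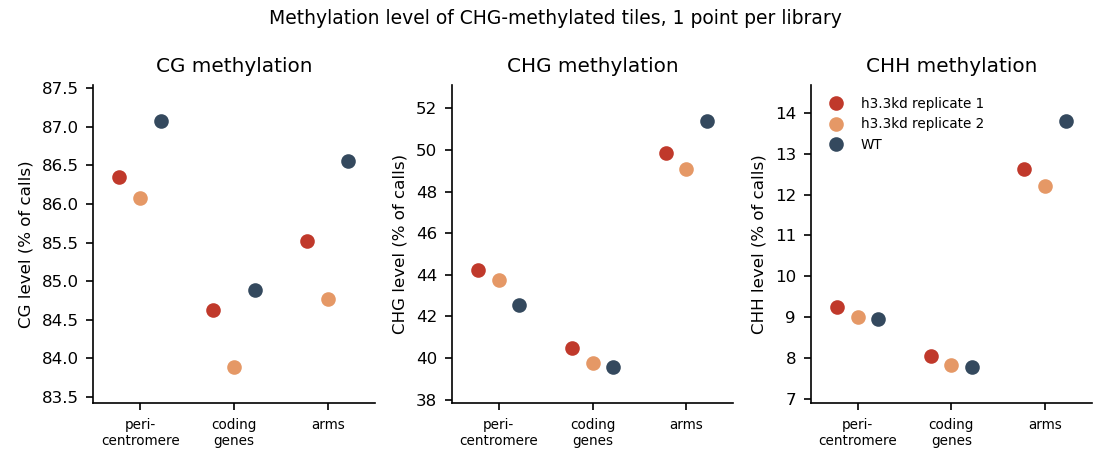
Methylation level (% of calls) in CG, CHG and CHH context, 1 point per library, for CHG-methylated tiles of the pericentromeric windows outside coding genes, of coding genes in the windows, and of the arms. CG lies below WT in both *h3.3kd* libraries in all 3 classes, while CHG and CHH lie above WT in the pericentromeric tiles and below it in the arms; axes do not start at 0.

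The small pericentromeric CHH difference hid opposite differences along the chromosome. Tiles were grouped by distance from the midpoint of their window, a choice made after the values had been seen. The midpoint is not the centromere itself. The 13 tiles of an rRNA gene copy on chromosome 3, described below, were left out of the classes of 0.5 Mb. Within 0.5 Mb of the midpoint, CHH was 9.02% and 8.73% in *h3.3kd*, against 8.28% in WT. At 3.0 to 3.5 Mb it was 10.8% and 10.5% in *h3.3kd*, against 11.8% in WT. The difference of the *h3.3kd* mean was 0.600, 0.561, 0.238, -0.083, -0.384, -0.923 and -1.15 points from the innermost to the outermost class. It fell with distance at each step.

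CHG methylation, described and not tested, ran the same way. Within 0.5 Mb it was 44.3% and 43.8% in *h3.3kd*, against 41.5% in WT, and at 3.0 to 3.5 Mb it was 46.8% and 46.3%, against 48.1%. The CHG difference was 2.58 points in the innermost class and -1.55 points in the outermost, and was close to 0 at 2.0 to 2.5 Mb (0.011 points). The levels themselves were flatter in *h3.3kd* than in WT. CHH in tiles under 1 Mb minus CHH in tiles at 2 Mb or more was -1.15 and -1.23 points in *h3.3kd*, against -2.40 points in WT (exact two-sided permutation p = 0.333, the smallest possible). The CG difference did not turn in sign. It was -0.551, -0.685, -0.842, -0.737, -0.772, -0.853 and -0.863 points from the innermost to the outermost class, with both *h3.3kd* libraries below WT in all 7 classes.

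**Figure D2:**
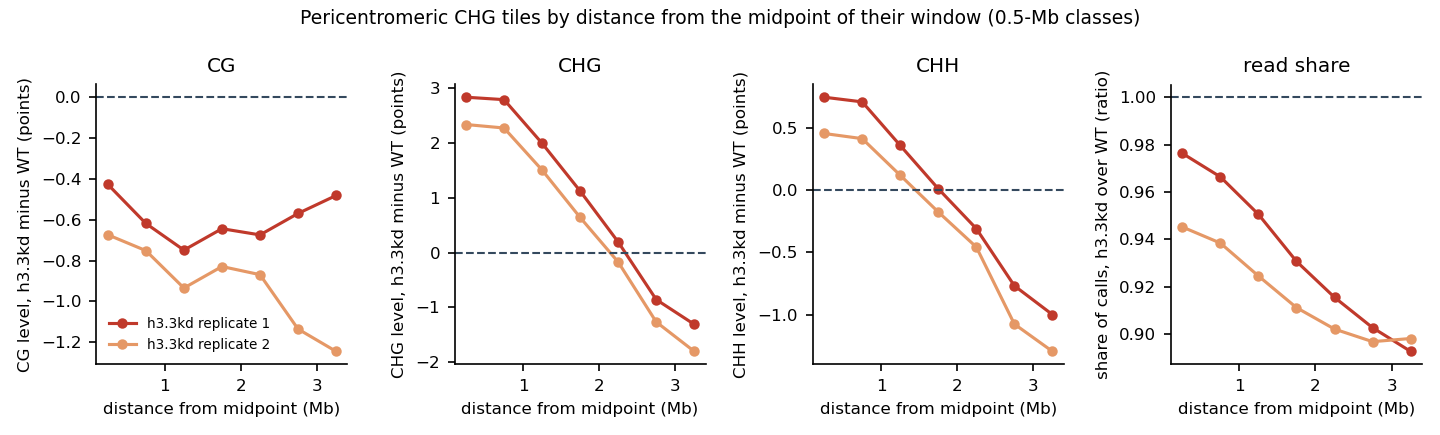
Difference from WT (points) in CG, CHG and CHH level and ratio of read share to WT, by distance (Mb) from the window midpoint, with 1 line per *h3.3kd* library and WT as the dashed line. CHG and CHH lie above WT in the inner classes and below it in the outer ones, CG lies below WT throughout, and the read share is lowest relative to WT in the outer classes (0.893 and 0.898 in the outermost).

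The order held in many subsets of the tiles. On chromosomes 1 to 5 the CHH difference under 1 Mb was 0.082, 0.603, 0.546, 0.861 and 0.562 points, and at 2 Mb or more it was -0.711, -0.462, -0.777, -0.146 and -0.830 points. All *h3.3kd* values lay above WT in the inner class except *h3.3kd* replicate 2 on chromosome 1 (9.590%, against 9.604% in WT), and all lay below WT in the outer class. In CHG, chromosome 4 was the exception, with 0.76 points at 2 Mb or more, where the other chromosomes lay between -0.95 and -0.24 points. Tiles in annotated pseudogenes, which in this annotation include transposon genes, had a CHH difference of 0.485 points inside 1 Mb and -0.545 at 2 Mb or more. Tiles with no annotated gene had 0.673 and -0.728 points there. Tiles chosen on WT alone had 0.508 and -0.789 points.

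Base composition and methylation level of the tiles changed along the same axis, and their part in the CHH order was not tested beyond the following classes. In tiles with under 35% GC the CHH difference was 0.827 points inside 1 Mb and -0.550 at 2 Mb or more. In tiles with at least 45% GC it was 0.232 and -0.904 points. By pooled CHG level, the CHH difference inside 1 Mb was 0.890 points for tiles of 20% to 30% and 0.056 for tiles of 60% or more. At 2 Mb or more it was -0.219 and -1.37 points for the same classes. So the inner value was above the outer one in each of the 5 CHG classes and 3 GC classes, although the more CHG-methylated and the more GC-rich tiles had lower differences at every distance. In tiles of 60% or more inside 1 Mb the *h3.3kd* libraries lay on both sides of WT (10.6% and 10.3%, against 10.4%).

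Other sequences of the windows gave the same order. The 6,503 CHG tiles of protein-coding genes had a CHH difference of 0.652 points inside 1 Mb and -0.610 at 2 Mb or more. Window tiles outside coding genes with a CHG level under 5% had 0.390 points inside 1 Mb, with 2.81% and 2.62% in *h3.3kd*, against 2.32% in WT, and 0.032 points at 2 Mb or more. On the arms, the CHH difference of CHG tiles was between -1.45 and -1.31 points at any distance from the window.

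**Figure D3:**
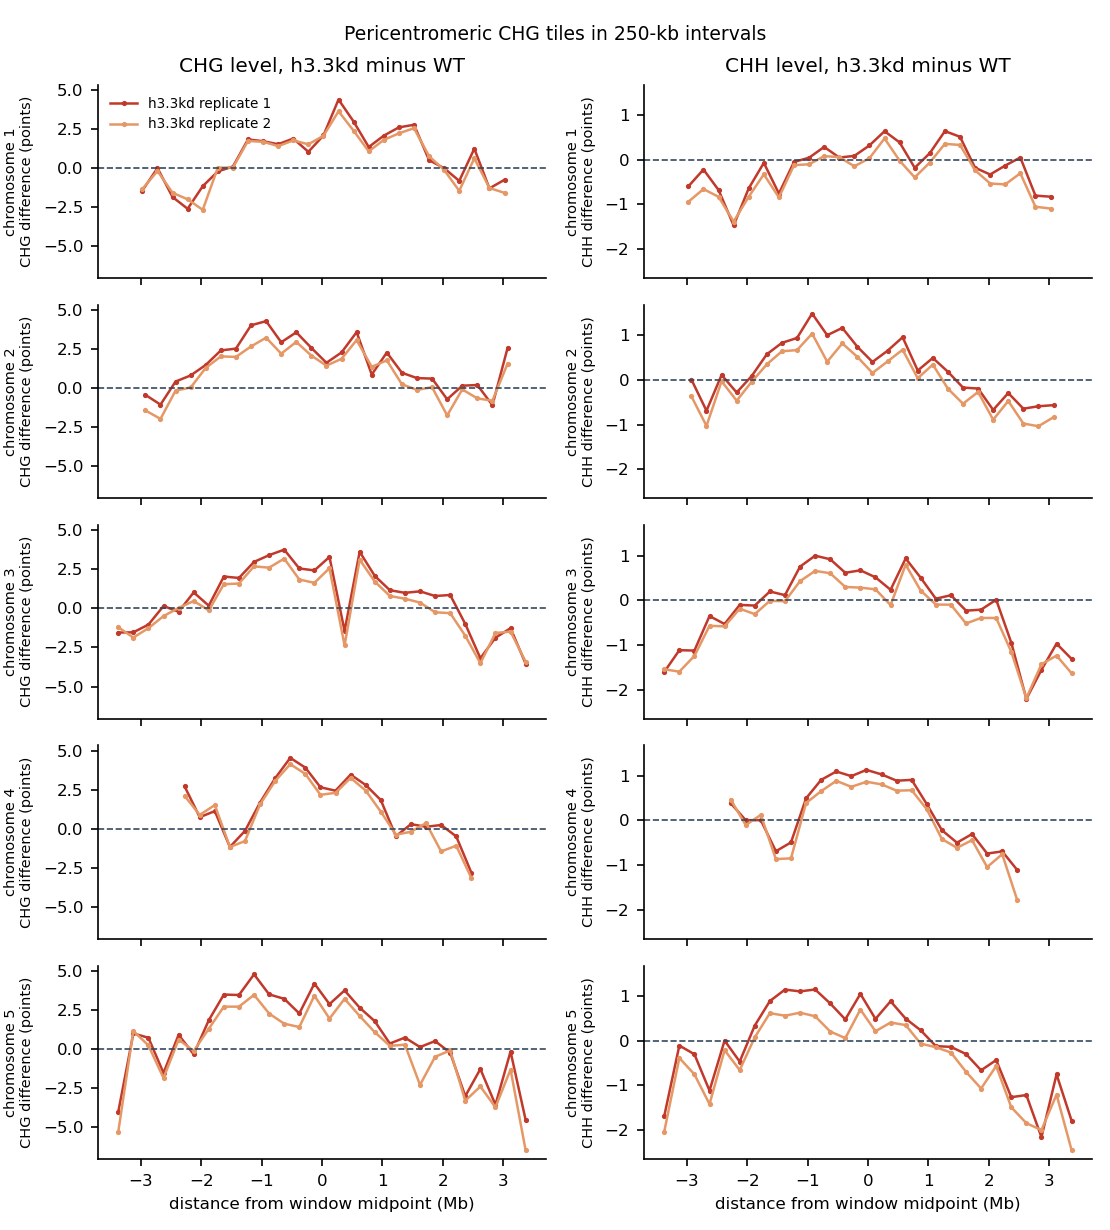
CHG (left) and CHH (right) level of pericentromeric CHG tiles, *h3.3kd* minus WT in points, in intervals of 250 kb along each window against distance (Mb) from its midpoint, with 1 line per *h3.3kd* library and WT as the dashed line. Differences are mostly positive near the midpoint and mostly negative near the ends. Exceptions, with CHG above WT, include the left end of chromosome 4, the rightmost interval of chromosome 2 and intervals near the left end of chromosome 5. In the leftmost interval of chromosome 4, CHH lies above WT as well. The dip in CHG near the midpoint of chromosome 3 holds the rRNA gene copy.

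Over 126 intervals of 250 kb, CG was lower than WT in both *h3.3kd* libraries in 115 and higher in both in 3. CHH was lower in both in 60 intervals and higher in both in 48, and CHG lower in 36 and higher in 76. The CG difference of an interval lay between -2.79 and 0.415 points once the rRNA gene copy was left out.

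The CHG level of a tile went with the direction of the CHH difference. In tiles of 20% to 30%, CHH was 7.73% and 7.46% in *h3.3kd*, against 7.03% in WT, a difference of 0.567 points. In tiles of 60% or more it was 11.8% and 11.5% in *h3.3kd*, against 12.2% in WT, a difference of -0.557 points. The classes between had 0.390, 0.149 and -0.086 points, so that the sign turned near 50% CHG. CG was lower in *h3.3kd* by 0.802 to 0.976 points in these 5 classes, with no such order.

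CHH is a mixture of trinucleotides that the enzymes read differently, with CMT2 favouring CAA and CTA. These were the most methylated CHH trinucleotides here. CAA was 22.04% and 21.37% in *h3.3kd*, against 20.8% in WT, and CTA was 21.4% and 20.7%, against 20.3%. Both lay above WT in both libraries. CTT (5.62% and 5.46%, against 5.32%), CTC and CAT did too. The weakly methylated CCC lay below WT, at 1.47% and 1.45% in *h3.3kd*, against 1.65% in WT, as did CCT, and the libraries lay on both sides of WT for CAC and CCA. On the arms all 9 CHH trinucleotides were below WT. Among CHG sites, CAG was 47.0% and 46.6% in *h3.3kd*, against 45.2% in WT, and CTG was 47.3% and 46.9%, against 45.3%. CCG, the least methylated of the CHG sites, was 32.4% and 31.4%, against 31.5% in WT, with the libraries on both sides.

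Annotated pseudogenes held 54.6% of the tiles and stretches with no annotated gene 44.5%. CG in pseudogene tiles was 87.7% and 87.6% in *h3.3kd*, against 88.7% in WT. In tiles with no annotated gene it was 85.8% and 85.5%, against 86.2%. CG was lower in both *h3.3kd* libraries in both classes, by 1.02 and 0.541 points. Neighbouring tiles formed 30,956 unbroken runs with a median of 2 tiles, of which 2,225 runs of at least 10 tiles held 35.3% of the tiles. CHG methylation was 39.1% and 38.2% in *h3.3kd*, against 37.2% in WT, in single tiles, and 48.7% and 48.5%, against 47.8%, in runs of at least 25 tiles. The longest run, chr3:13316001-13324500, had 85 tiles over the pseudogenes AT3G32383, AT3G32385 and AT3G32387. Its CG level was 87.8% and 86.5% in *h3.3kd*, against 88.6% in WT, and its CHH level 8.94% and 8.40%, against 8.60%. The next, chr2:4699501-4707700 over AT2G11720, AT2G11730 and AT2G11740, had a CG level of 85.2% and 84.1% in *h3.3kd*, against 84.3% in WT. The third, chr3:14765501-14772800 over AT3G42690 and AT3G42700, had 87.2% and 88.1%, against 87.4%. In the second and the third run the *h3.3kd* libraries lay on both sides of WT for CG.

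Tandem repeats were found by comparing the reference with itself shifted by 100 to 700 bases. Units of 178 bp, the length of the centromeric satellite printed above, held 684 tiles, 349 of them on chromosome 5. Their CHH level was 8.88% and 8.45% in *h3.3kd*, against 7.61% in WT, 1.06 points higher, and their CHG level 35.4% and 34.3%, against 32.9%. CG was 69.9% and 70.0% in *h3.3kd*, against 69.2% in WT. Unlike the tiles as a whole, these satellite tiles lay above WT in both *h3.3kd* libraries for CG as well as for CHH. They were 22.7% of the 3,011 window tiles with this unit outside coding genes, so the values do not describe the satellite as a whole. Each tile counts by its calls, and the deepest weigh most. Their depth was 157 and 158 calls per cytosine in *h3.3kd*, against 158 in WT. This was far above the 17.3 and 17.3, against 18.7, of all the tiles. How reads that match several copies were assigned is not given in the sources used here. Tiles with units of 159 bp (341 tiles) and 506 bp (337 tiles) had CHH levels below WT, with differences of -0.346 and -0.425 points.

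An rRNA gene copy at chr3:14197677-14204208 stood apart, and was singled out after its values had been seen. It holds AT3G41768, a gene for rRNA of the small ribosomal subunit, the 5.8S rRNA gene AT3G41979, and AT3G06355 and AT3G06365, and had 13 of the tiles. Their CG level was 56.0% and 58.2% in *h3.3kd*, against 72.3% in WT, a difference of -15.2 points, with CHG at 21.6% and 22.8%, against 31.2%. CG was lower in both *h3.3kd* libraries in 13 of 13 tiles, by 9.40 to 18.2 points. The depth was 653 and 811 calls per cytosine in *h3.3kd*, against 1139 in WT, so that this locus took 0.585 and 0.710 times the WT share of calls. The first gene is 99.89% identical over 1808 bases to AT2G01010 at chr2:3706-5513, and so calls at this position may come from other rRNA gene copies. Number of copies read and methylation per copy cannot be told apart here. Without these 13 tiles the CG difference of the remaining tiles was -0.747 points.

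The tiles took a smaller share of all calls in *h3.3kd*, at 9.02% and 8.81%, against 9.54% in WT. The ratio to WT was 0.946 and 0.924 (exact two-sided permutation p = 0.333, the smallest possible), and it was below 1 in both libraries in 126 of 126 intervals of 250 kb. CHG tiles of the arms had ratios of 0.879 and 0.880, and window tiles under 5% CHG 0.935 and 0.976. The share also moved with base composition, whose part in the difference was not tested beyond the classes given here. Pericentromeric CHG tiles under 25% GC had ratios of 0.783 and 0.890, and those of at least 45% GC had 0.988 and 0.942. In each of 6 classes of GC content their ratio lay above that of CHG tiles of the arms and below that of window tiles under 5% CHG, in both libraries. Mean GC content was 39.1% in the pericentromeric tiles and 34.3% in the CHG tiles of the arms. The ratio also fell with distance from the midpoint, with 0.976 and 0.945 within 0.5 Mb and 0.893 and 0.898 at 3.0 to 3.5 Mb.

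**Figure D4:**
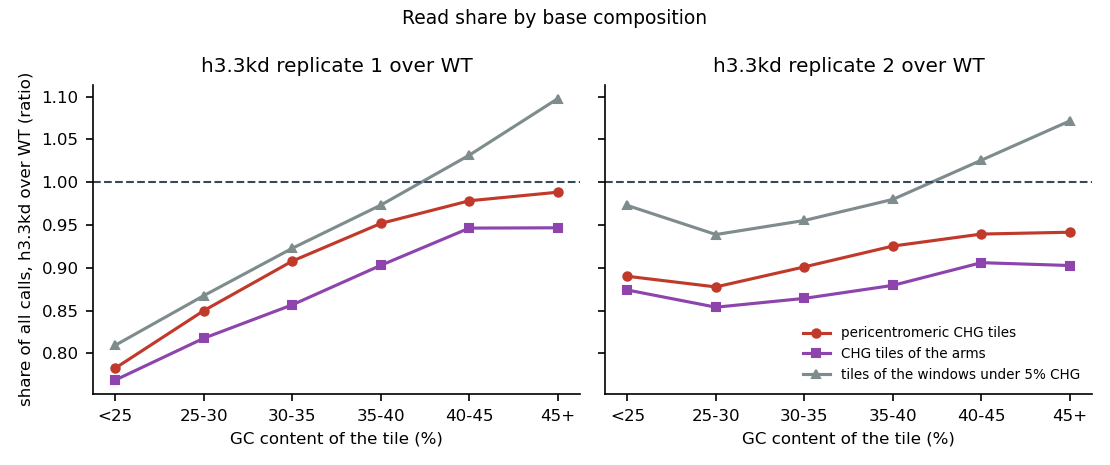
Share of all calls, *h3.3kd* over WT (ratio), by GC content of the tile (%), for each *h3.3kd* library, with equality to WT as the dashed line. The pericentromeric CHG tiles lie between the CHG tiles of the arms and the window tiles under 5% CHG in each GC class, and reach 0.988 and 0.942 at 45% GC or more; axes do not start at 0.

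Most single CG sites were highly methylated in every library. Of 386,702 CG cytosines covered by at least 10 calls in all 3 libraries, 261,479 (67.6%) were at 80% or more in all of them. Sites of at least 80% in WT and under 20% in both *h3.3kd* libraries numbered 103, and sites under 20% in WT and at least 80% in both numbered 161. Between the *h3.3kd* libraries, 271 sites were high in replicate 1 and low in replicate 2 and 141 the other way. By the same bounds 271 sites were low in replicate 1 and high in WT and 241 the other way. For replicate 2, 383 were low in it and high in WT and 236 the other way. Such shares were not computed over all CG sites of the genome. These sites lie in tiles chosen on CHG pooled over the libraries, so no excess of either direction is read from the counts. Sites between 20% and 80% numbered 64,819 and 65,675 in *h3.3kd*, against 59,442 in WT, so the intermediate class was larger in both *h3.3kd* libraries. Depth over the tiles was lower in *h3.3kd*, at 17.3 and 17.3 calls per cytosine, against 18.7 in WT. Its part in the size of this class was not tested.

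Few tiles changed strongly. A tile was called when two-sided Fisher's exact tests of its C and T calls gave an FDR under 0.01 (Benjamini-Hochberg, over the tested tiles of the whole genome) for both *h3.3kd* libraries and the level differed from WT by at least 20 points in the same direction in both. These tests compare libraries, not genotypes. Of the 87,907 tiles tested for CG, 113 were lower in *h3.3kd* (0.129%) and 216 higher (0.246%). Over all tested tiles of the genome, 2.59% were lower and 1.19% higher. Both shares of the pericentromeric tiles were well under those of the genome. The first quartile of their CG level in WT was 84.2%, so most of them could not rise by 20 points. Nothing is therefore read from their low share of higher calls. On the arms, 155 of 17,692 CHG tiles were lower (0.876%) and 152 higher (0.859%). Set against each other in the same way, *h3.3kd* replicate 2 was lower than replicate 1 in 321 pericentromeric tiles and higher in 147, compared with 325 lower and 297 higher for replicate 1 against WT alone and 515 lower and 304 higher for replicate 2 against WT alone.

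The direction of the CG calls rested on which libraries chose the tiles. With CHG of at least 20% in WT alone there were 186 lower and 108 higher calls. With at least 20% in each library there were 63 and 106, and with at least 20% in any library 190 and 351. No excess of higher over lower calls is therefore read from them. For CHG, 116 tiles were lower and 137 higher, with 0.0719% lower and 0.0482% higher over the genome, and nothing is read from these because CHG chose the tiles. For CHH, 27 of 109,320 tiles were lower (0.0247%) and 10 higher (0.00915%), against 0.0127% and 0.00521% over the genome. Whether these shares differ from those of the genome was not tested. The 95th percentile of the CHH level of the tiles in WT was 18.6%, so most of them could not fall by 20 points. *h3.3kd* replicate 2 was lower than replicate 1 in 12 tiles for CHH and higher in 5.

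The calls were scattered. The 113 lower CG tiles formed 100 regions, 94 of them 1 tile long, and the 216 higher ones 190 regions, 167 of them 1 tile long. Tiles called lower for CG had a CHG level of 28.8% and 27.5% in *h3.3kd*, against 46.5% in WT, and a CHH level of 6.84% and 6.54%, against 10.9%. Tiles called higher had 45.1% and 43.2% CHG in *h3.3kd*, against 23.7% in WT, and 9.14% and 8.56% CHH, against 5.27%. CHH thus lay on the same side of WT as CG in both sets. The CG call did not use CHH, but CHH rose with the CHG level that chose the tiles. It is therefore no separate check on the CG calls.

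The region lower for CG with the most called tiles was chr1:16706601-16707400, which had 6 of them and no annotated gene. Its CG level was 47.3% and 55.7% in *h3.3kd*, against 93.2% in WT (95% Wilson interval 91.4% to 94.6%). CHH there was higher, at 14.0% and 16.2% in *h3.3kd*, against 11.1%. In the chromosome 5 region printed above, CG was 1.63% and 1.03% in *h3.3kd*, against 84.9% (79.9% to 88.8%) in WT, with CHH at 2.55% and 1.68%, against 8.49%. CHG, which chose the tiles, was 6.43% and 4.89% in *h3.3kd*, against 50.9% in WT. All contexts were thus lower in both *h3.3kd* libraries, and the region as a whole reached 20% CHG only in WT. At chr4:5987801-5988400, inside pseudogene AT4G09455, CG was 12.0% and 5.95%, against 92.5%, and CHH 0.894% and 1.06%, against 20.9%. At chr1:11585801-11586300 CG was 53.8% and 41.4% in *h3.3kd*, against 90.9% in WT. At chr4:2735601-2735800 it was 16.1% and 20%, against 72.3%. Only the first of these 5 regions had more CHH methylation in *h3.3kd* than in WT. CHG was 5.63% and 0.909% in *h3.3kd*, against 70.8% in WT, at chr4:5987801-5988400. At chr1:11585801-11586300 it was 12.3% and 3.02%, against 55.3%. Like the chromosome 5 region, these reached 20% CHG only in WT. The first region reached it in both *h3.3kd* replicates (27.8% and 32.3%) and the last in replicate 2 (20.4%).

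Of the 4 regions described here that were higher for CG, 3 had a CG level under 20% in WT. At chr5:12437801-12438100 CG was 85.4% and 88.6% in *h3.3kd*, against 15.04% in WT. At chr2:6397501-6397800 it was 89.4% and 89.2%, against 52.0%. The *h3.3kd* libraries lay close to each other in each, near the level of all the tiles. At chr2:6706901-6707100 CG was 94.2% and 91.6%, against 4.65%, and at chr2:1664601-1664800 it was 89.5% and 84.2%, against 1.61%. None of these 4 overlapped an annotated gene.

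**Figure D5:**
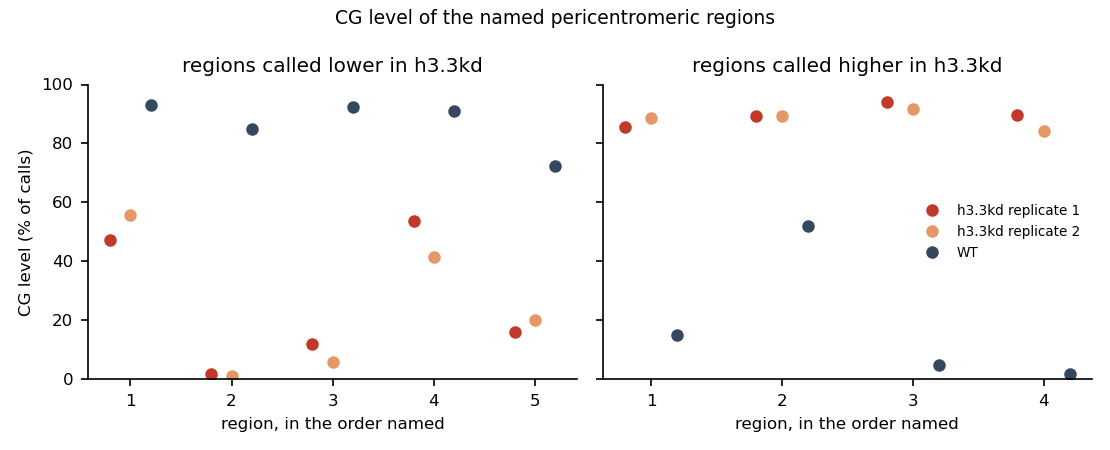
CG level (% of calls) of the 5 regions called lower (left) and the 4 called higher (right) in *h3.3kd*, 1 point per library, numbered in the order of the text. In the left panel WT lies at 72.3% or more and both *h3.3kd* libraries at 55.7% or less, and in the right panel *h3.3kd* lies at 84.2% or more and WT at 52.0% or less.

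The regions called for CHH differed in what their CG methylation did. At chr5:14776501-14776700 CHH was 24.03% and 26.73% in *h3.3kd*, against 51.9% in WT, while CG stayed at 92.9% and 94.2%, against 96.8%. At chr5:15900701-15900800 CHH was 1.504% and 2.439%, against 48.7%, with CG at 9.76% and 12.0%, against 64.8%. At chr3:16755101-16755200, which had no CG calls, CHH was 2.23% and 0.332%, against 37.6%. The first kept its CG methylation and the second lost it in both *h3.3kd* libraries. In the other direction, CHH at chr2:6390101-6390300 was 27.6% and 24.4% in *h3.3kd*, against 1.17% in WT. CHG there was 90.7% and 90.1%, against 0% of 105 calls, which allows up to 2.86%. This region met the CHG rule only through the *h3.3kd* libraries, like the regions higher for CG described above. At chr1:12435201-12435300 CHH was 51.3% and 54.6%, against 7.63%. At chr2:6391501-6391600 it was 38.2% and 41.1%, against 5.88%. Both *h3.3kd* libraries lay on the same side of WT in all 6 regions, as the call requires.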

How the data were processed

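BS-seq libraries of mature leaf DNA, 2 from *h3.3kd* and 1 from WT, were grouped by the genotype and title in their labels. Per the methods of the study, identical reads were collapsed and mapped to TAIR10 with BS Seeker. The version and the handling of reads with several matches are not given in the sources used here. Raw counts were deposited by the authors: reads with C and reads with T at each cytosine, 1 library per file, without normalization or pooling. All columns of counts were used (0 left out). Counts of 1 cytosine on separate lines were summed.

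Positions were compared with the TAIR10.1 reference, whose nuclear coordinates equal those of TAIR10 (the build in the submitters' processing notes), and 0 lay off a cytosine. A level is C calls over all calls of a set (weighted level), with 95% Wilson intervals. The tiles and the classes they were compared with were chosen with earlier results of these data known. Tiles with at least 20 calls of a context in each library were tested with Fisher's exact test, setting each *h3.3kd* library against WT and adjusting by Benjamini-Hochberg over the genome (FDR under 0.01, 20 points in both libraries). Called tiles up to 200 bp apart were merged. Such criteria were used for losses in the study, and gains were added here. Named are the 5 regions lower and 5 higher for CG, and 3 each for CHH, with the most called tiles (ties by the smaller of the differences of both libraries), the 3 longest runs, and the 2 tiles closest to each side of the CHG threshold. Of these regions, 1 higher for CG is not reported here. Read share is the share of all calls of a library. Tandem repeats needed 75% identity at a shift of 100 to 700 bases.

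limma was an alternative to Fisher's test, on log2 ratios of C to T counts with 0.5 added. Other alternatives changed the CHG minimum, the library that chose the tiles, the minimum of calls, the FDR, the difference required, the averaging, the distance from coding genes and the depth of the tiles. The code was tested on simulated data. Python 3.11.15, numpy 2.4.6, pandas 2.3.3, numba 0.67.0, matplotlib 3.10.9, R 4.3.3 and limma 3.58.1 were used.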

Additional observations from a re-analysis of the deposited data

How the results depend on the processing

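Of 117 alternative values, 78 stayed within the spread between the *h3.3kd* libraries or within 1.5 times the count, 36 moved and 3 turned in direction. Leaving out an *h3.3kd* replicate cannot shift a level difference or a read share ratio by more than that spread. Those values are among the 78 by construction and are no test of stability. The settings by rRNA gene copy and by distance were chosen after seeing the data. With tiles at 2 Mb or more from the window midpoint, the difference was -0.505 points for CHG and -0.633 for CHH and the read share ratio was 0.904. With tiles under 1 Mb it was 2.42 points for CHG and 0.574 for CHH, and the ratio was 0.9502. With a CHG level of at least 40%, it was -0.101 points for CHH and 1.08 for CHG. With CHG of at least 20% in WT alone it was -1.11 points for CG and 0.936 for CHG. The share of CG calls alone gave a ratio of 0.917. The cause of these shifts was not tested.

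Counts of calls moved with the settings. Lower and higher CG calls numbered 197 and 407 with CHG of at least 10%, 36 and 74 with at least 40%, 186 and 108 with WT alone, 63 and 106 with every library, and 190 and 351 with any library. At 40 points they numbered 47 and 102, and at 10 points 196 lower. CHH calls numbered 17 lower with every library, 176 lower and 62 higher at 10 points, and 1 and 1 at 40 points. Leaving out an *h3.3kd* replicate gave 325 to 515 lower CG calls, 50 to 55 lower and 18 to 26 higher CHH calls, since only 1 library then had to pass. Differences without a replicate were -0.994 to -0.719 points for CG, 1.22 to 1.72 for CHG and 0.0518 to 0.302 for CHH, and ratios 0.924 to 0.946. limma called 0 tiles for CG and 0 for CHH at an FDR under 0.01, with smallest adjusted p of 0.361 and 0.836. At an unadjusted p under 0.05 it had 2,955 tiles for CG and 535 for CHH, and of those with 20 points, 162 lower and 263 higher for CG, and 26 and 8 for CHH. It took the residual spread from the 2 *h3.3kd* libraries and assumed that WT varies like them. No paired analysis was possible because WT had a single library. With that library, differences between genotypes and between libraries cannot be told apart, and 19.2 to 19.7 calls per cytosine leave single tiles imprecise.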
